A study of Homo sapiens with 12 samples.

Results

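Untreated bronchial epithelial cells of the immortalised human line 16HBE were described from 3 control arrays, out of 12 arrays in the series. The control cells carried the empty retroviral vector pQCXIP as a stable infection and received the solvent DMSO for 4 days, so they had no inhibitor but were not naive cells. Each control array held total RNA of a separate experiment, of 3 independent experiments, labelled as biotinylated cRNA and read on an Illumina bead array. The other arrays of the series held cells of the same line with a Ras, MEK or ERK block, and none of them enters the values below except where the spread between arrays is given. A gene was called detected when at least 1 of its probes stood above the negative controls of the array, at a detection p under 0.01, on each of the 3 control arrays. By this rule 9912 of 20045 genes with an annotated probe were detected, which is 49.4%. Detected genes were ranked by the mean intensity of their brightest probe.

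The surface of a bronchus is lined by a layered epithelium. Basal cells sit on the basement membrane, carry the keratins KRT5 and KRT14 and the transcription factor TP63, and give rise to the other types. Club and goblet cells secrete protective proteins and mucins, and ciliated cells, which form under the transcription factor FOXJ1, move the mucus. Injured or cultured airway epithelium can also switch on squamous genes, which build the cornified envelope in skin. Mesenchymal genes belong to fibroblasts and to epithelial cells that have lost their junctions.

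The control arrays were alike in depth. A median of 22 beads was read per probe on each array, and 17207, 16825 and 17155 of 47322 probes were detected on control arrays 1, 2 and 3, with 15705 detected on all 3. Of these, 12873 had exactly 1 gene symbol in the annotation and stood for the 9912 genes. The mean intensity of a detected gene ran from 95.3 to 5806, with a median of 271 and quartiles of 147 and 606, and 1453 genes reached 1000 or more. Genes that were not detected had a median of 83.5. The lowest detected genes therefore lay close to the background: 75 genes just inside the limit, with a highest detection p of 0.00909, had means of 95.3 to 108, and 35 genes with a single probe just outside it, at 0.0104, had means of 94.9 to 106. The intensity of a probe depends on how well that probe binds as well as on the amount of transcript, so ranks are ranks of signal and not of transcript number. In these bulk RNA samples fewer cells that express a gene and less RNA of it per cell cannot be told apart.

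**Figure D1:**
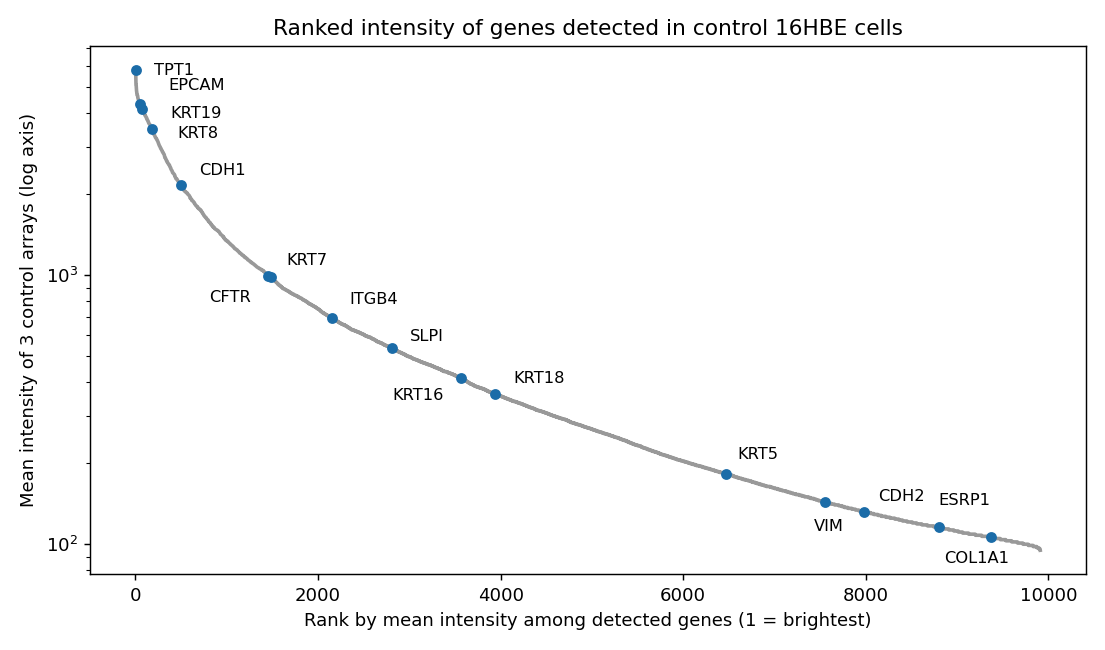
Mean intensity over the 3 control arrays (log axis) of each detected gene against its rank among 9912 detected genes, with identity genes marked. EPCAM, KRT19 and KRT8 lie on the steep bright end, CDH1 at rank 497, and KRT5, VIM, CDH2 and COL1A1 on the flat dim end near background.

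Ribosomal protein genes were the most frequent of the listed families among the brightest signals, and the rest of the 25 brightest genes had varied tasks. TPT1, a small protein tied to growth and translation, read 5870, 5898 and 5651 on control arrays 1, 2 and 3 and ranked first. RPL41, a protein of the large ribosomal subunit, read 4969, 5431 and 6397. TMSB4X, which holds actin monomers in reserve, read 5823, 5820 and 4997. The values of these genes overlapped, and the brightest gene differed from array to array: it was ANXA2 on array 1, TPT1 on array 2 and RPL41 on array 3. ANXA2, a membrane-binding annexin, read 5954, 5002 and 5523, and its partner S100A10 read 4822, 5139 and 5417. EZR, which ties actin to the microvilli of the apical membrane, read 5226, 5195 and 4623. The elongation factor EEF1A1 read 5126, 4659 and 5878. The remaining genes among the 25 brightest had means between 4585 and 5129. They included the mitochondrial adenine nucleotide carrier SLC25A5, the ATP synthase subunit ATP5F1B, the ribosomal proteins RPS6, RPS27, RPLP2, RPS12, RPL6 and RPL9 and the ribosomal protein pseudogene RPL13AP5. Cytoskeletal genes were the tubulins TUBA1C and TUBA1A, the actin ACTB and the myosin light chain MYL6. The ferritin light chain FTL, the clathrin adaptor subunit AP2S1, the polyamine regulator OAZ1, the endosomal factor RAB5IF and the receptor LAIR1 completed the 25.

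**Figure D2:**
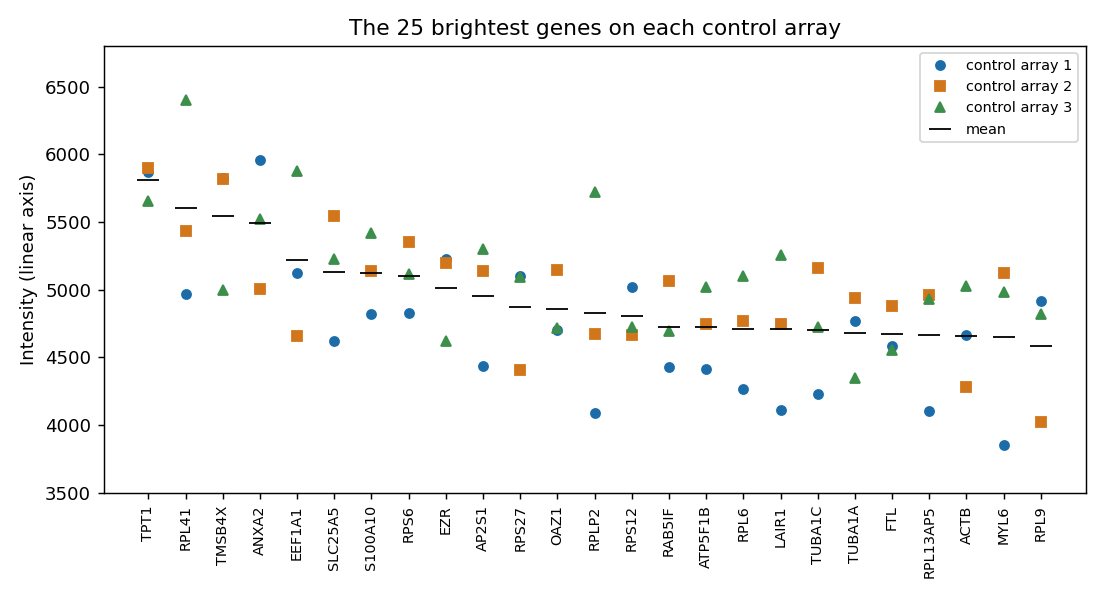
Intensity (linear axis that does not start at 0) of the 25 brightest genes on control arrays 1, 2 and 3, with the mean as a dash. The 3 arrays of neighbouring genes overlap throughout, and RPL41 on array 3 is the highest point at 6397.

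The order among these genes was not resolved by 3 arrays. None of the 24 pairs of neighbours in the ranking had arrays that did not overlap, and 9 of the 25 genes were among the brightest 25 on every array. Array by array, 19, 19 and 17 of the 25 were among the brightest 25 on arrays 1, 2 and 3. The 25 were chosen by the mean of these same arrays, so part of each overlap is built in. Ribosomal protein genes made up 24 of the 100 brightest and 53 of the 500 brightest, and 71 of 77 on the array were detected. Genes whose symbols start with EEF or EIF, most of them for elongation and initiation factors, numbered 61 detected of 67. The RNA helicase EIF4A1, which unwinds the 5′ ends of mRNAs, read 4242, 4135 and 4508, and EEF1B2 read 3409, 3507 and 3777.

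Many mRNAs for ribosomal proteins and elongation factors start with a C followed by a run of pyrimidines, a feature known as the 5′ terminal oligopyrimidine tract, through which growth signals control their translation. The starts of the brightest genes are shown because they carry this feature to differing extents. Each window below runs from 20 bases before the start listed by RefSeq (GRCh38.p14) to 20 bases from it on, read 5′ to 3′ on the strand of the gene, and capitals mark a C at the start followed by at least 4 bases that are each C or T. Of 19 genes among the 25 brightest with a single listed start, the 7 with such a tract are shown first, followed by 5 of the 12 without one at that start, ANXA2, S100A10, EZR, TMSB4X and the ribosomal protein gene RPL9.
TPT1, chr13:45341164-45341203, minus strand: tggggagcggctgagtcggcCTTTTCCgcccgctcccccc
RPL41, chr12:56116613-56116652, plus strand: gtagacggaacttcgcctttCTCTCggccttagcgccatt
EEF1A1, chr6:73521013-73521052, minus strand: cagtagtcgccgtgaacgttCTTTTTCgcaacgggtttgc
RPS6, chr9:19380217-19380256, minus strand: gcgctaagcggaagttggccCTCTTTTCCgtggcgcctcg
RPS27, chr1:153990742-153990781, plus strand: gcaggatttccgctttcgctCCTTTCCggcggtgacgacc
RPLP2, chr11:809947-809986, plus strand: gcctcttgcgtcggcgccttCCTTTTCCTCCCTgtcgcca
RPS12, chr6:132814549-132814588, plus strand: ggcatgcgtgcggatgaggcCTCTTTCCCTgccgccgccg
ANXA2, chr15:60397967-60398006, minus strand: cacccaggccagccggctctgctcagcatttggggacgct
S100A10, chr1:151993840-151993879, minus strand: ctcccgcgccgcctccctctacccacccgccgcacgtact
EZR, chr6:158818216-158818255, minus strand: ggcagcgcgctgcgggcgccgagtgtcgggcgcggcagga
TMSB4X, chrX:12975090-12975129, plus strand: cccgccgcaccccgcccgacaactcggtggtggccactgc
RPL9, chr4:39458903-39458942, minus strand: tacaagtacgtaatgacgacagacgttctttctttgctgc

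The tract was looked for at the listed starts alone, on the strand of the gene, and a gene with several listed starts counted if any of them had it. Of 22 genes among the 25 brightest with a listed start, 7 had the tract, or 31.8%. Among the 100 brightest it was 28 of 80, or 35%, and without the ribosomal protein genes 10 of 58, or 17.2%. Ribosomal protein genes that were detected had it in 42 of 60 cases, or 70%, and the EEF and EIF genes in 12 of 47, or 25.5%. The share was 7.69% of all detected genes, 4.55% of genes not detected and 5.14% of all 27305 genes of the promoter table. With genes of a single listed start only, these shares were 36.8% of the 25 brightest, 73.1% of the detected ribosomal protein genes, 5.81% of detected genes and 3.3% of genes not detected. The listed start may not be the start used in 16HBE cells, and a missing tract says only that these letters are not there. Over the 300 bases around single starts, detected genes had a median GC content of 65.7% and 27 CpG pairs, against 58% and 10 for genes not detected.

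The epithelial markers of the labelled cell type were all detected. CDH1, the E-cadherin that joins epithelial cells, read 2135, 2114 and 2235 on the 3 control arrays, a mean of 2161 ± 64.6 (SD, n = 3) at rank 497. EPCAM, an epithelial adhesion molecule, read 4281, 4729 and 3981, at rank 48, and its 2 further probes were also detected, with means of 3569 and 1177. KRT18, a keratin of simple epithelia, read 331, 371 and 384, a mean of 362 ± 27.8 (SD, n = 3) at rank 3937. All 3 genes were far above background on every array, but the probe of KRT18 was much dimmer than those of CDH1 and EPCAM. A further KRT18 probe read 92, 93 and 103 and was detected on 1 array, so this gene rested on 1 of its probes.

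Of the 18 measured genes of the epithelial list, 16 were detected (88.9%, beside 49.4% of all named genes). CD24, a surface glycoprotein, read 4238, 4459 and 4430. KRT19 read 4126, 3670 and 4716, and KRT8, the partner of KRT18 in keratin filaments, read 3533, 3049 and 3900. SPINT2, an inhibitor of surface serine proteases, read 3780, 3900 and 3927. PRSS8, a surface protease that SPINT2 inhibits, had a mean of 1416, the vesicle GTPase RAB25 of 1168 and KRT7 of 998, and the P-cadherin CDH3 had a mean of 869. The simple-epithelium keratins thus included signals among the 200 brightest genes. At the dim end, the splicing regulator ESRP1 read 119, 112 and 116, close to the limit, and ESRP2 and the surface protein PROM1 were not detected on any array.

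Junction genes were mostly present. Of 13 tight junction and polarity genes 10 were detected (76.9%), and of 13 desmosome genes 11 (84.6%), beside 49.4% of all named genes. Where every probe of a gene had to be detected, 7 desmosome genes were, beside 7671 of all 20045 genes. The tight junction scaffold TJP1 read 588, 727 and 816. CLDN7 read 1809, 1475 and 1591, CLDN1 842, 1347 and 1191, and the junction plaque protein CGN 1252, 1354 and 1365. MARVELD3, a tight junction membrane protein, averaged 459. OCLN, which encodes occludin, was not detected, at 83, 86 and 85, nor were the polarity gene PARD3 and CLDN8. Of the other detected members, CLDN3 averaged 292, and MARVELD2, LLGL2, CLDN4 and PARD6B averaged 140, 121, 118 and 109, the last of these near the limit.

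Claudins form the paracellular seal, and 12 of 23 measured (52.2%, close to the 49.4% of all genes) were detected. CLDN7, CLDN1 and CLDN23 were the brightest, with means of 1625, 1126 and 980. CLDN11 and CLDN12 averaged 500 and 488. CLDN9, CLDN3, CLDN6, CLDN14 and CLDN15 had means of 353, 292, 236, 171 and 136, and CLDN4 and CLDN20 of 118 and 102. The range across the family spanned nearly the whole scale of detected genes below the brightest.

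In the desmosomes, which anchor keratin filaments, the plaque protein JUP read 1759, 1754 and 1751 and the cadherin DSG2 1638, 1549 and 1533. PERP, a desmosomal membrane protein, read 1030, 1392 and 1384. DSC2 and PKP4 averaged 511 and 430, and DSP, the plakin that links the plaque to keratin, averaged 258. The desmosomal cadherins of stratified epithelia were dimmer or at background: DSC3 averaged 210 and DSG3 124, and DSG1 and DSC1 of the upper epidermis were not detected.

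Of 18 transcription factors of epithelial and airway identity, 9 were detected (50%, near the share of all genes), and all were modest in signal. ELF3, an epithelial ETS factor, read 395, 495 and 452. KLF4, known from differentiating barrier epithelia, read 379, 329 and 389, and OVOL2, which holds cells epithelial, read 320, 312 and 347. SOX9 averaged 250 and the junction regulator GRHL2 140. The lung lineage factor NKX2-1 was not detected, at 75, 81 and 83, nor were FOXA1, FOXA2, FOXA3, SOX2, EHF, ELF5, GATA6 and TBX5. FOXA2 reached the limit on 1 array and EHF on 2 arrays.

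The basal genes were split. KRT5, the basal keratin, was detected on all 3 arrays at 175, 189 and 185, a mean of 183 ± 7.38 (SD, n = 3) at rank 6472. Its partner KRT14 was not detected, at 88, 90 and 93. TP63, the basal keratin KRT17 and COL17A1 had no annotated probe here and were not analysed here. The signal of the measured basal keratins was thus low and came from KRT5 without KRT14, with KRT15 at a mean of 113. NGFR, a surface receptor used to sort basal cells, and the protease MMP10 were also not detected. Of 15 measured basal genes, 12 were detected (80%, beside 49.4% of all named genes). Where every probe had to be detected, 6 of the 15 were, beside 7671 of all 20045 genes. CAV1, the scaffold of caveolae, read 3861, 3709 and 3806 at rank 128, and the laminin chain LAMB3 read 1709, 1505 and 1494. The hemidesmosome integrin ITGB4 read 680, 691 and 711. DLK2, a relative of the Notch ligands, averaged 435, and ITGA6, the partner of ITGB4, 297. The brightest members of the list, CAV1 among them, are also made by many other adherent cells.

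Of 18 genes for hemidesmosomes and attachment to the basement membrane, 17 were detected (94.4%, beside 49.4% of all named genes). Where every probe of a gene had to be detected, 9 were, beside 7671 of all 20045 genes. ITGB1, the shared beta chain of collagen and laminin receptors, read 3314, 3989 and 3814. The tetraspanin CD151, a partner of laminin-binding integrins, read 3330, 3542 and 3366, and the laminin chain LAMA5 2391, 2843 and 3007. ITGA3, a laminin receptor chain, read 1804, 1619 and 1906. The basement membrane genes COL4A1 and AGRN averaged 1334 and 1241. The single gene not detected on all 3 arrays was NID1, which passed on 2 of them.

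**Figure D3:**
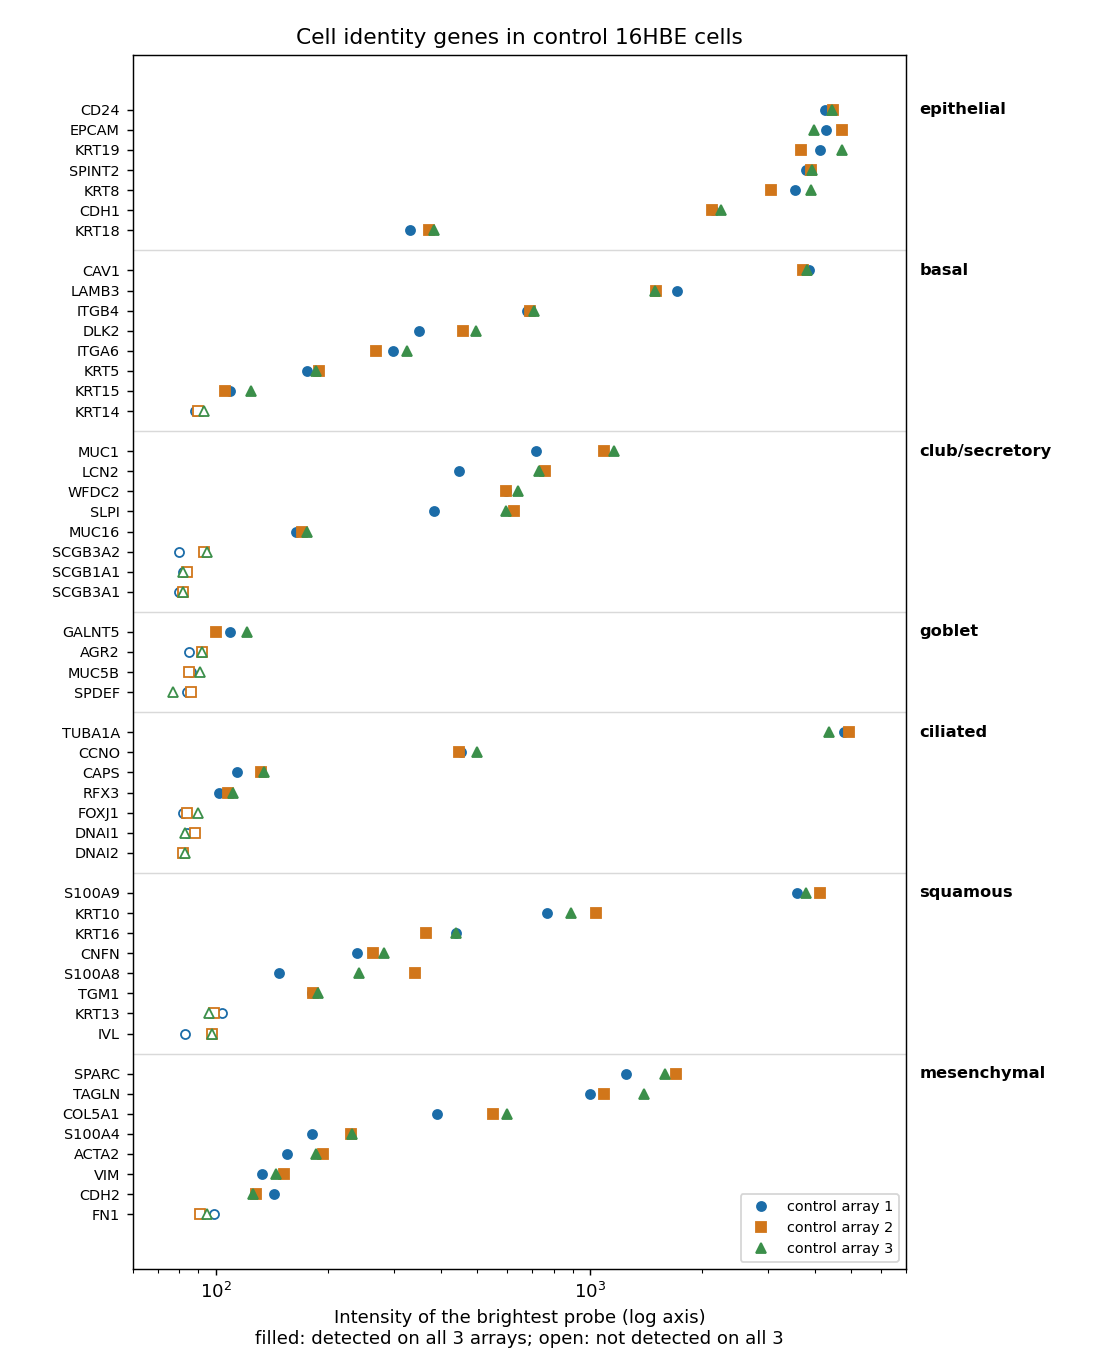
Intensity (log axis) on each control array of genes of the epithelial, basal, club/secretory, goblet, ciliated, squamous and mesenchymal lists. For each list the first 3 measured genes and the 5 brightest detected genes are shown. Filled symbols are genes detected on all 3 arrays. Epithelial genes reach 4376 on average, whereas the lead genes of the secretory, goblet and ciliated lists sit near 80 to 90.

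The defining genes of secretory cells were at background. SCGB1A1, the main secreted protein of club cells, read 82, 84 and 82, and its highest detection p was 0.668. SCGB3A1 and SCGB3A2 were not detected, nor was any of the 11 secretoglobins measured. Of the 19 secretory genes 5 were detected (26.3%, beside 49.4% of all named genes). MUC1, a membrane mucin of most epithelia, read 719, 1092 and 1158. LCN2, an iron-trapping defence protein, read 447, 758 and 733, and SLPI, an antiprotease, read 384, 626 and 596. All 3 were lowest on array 1. The summed intensity of the list was 3452 there, against 4433 and 4500 on arrays 2 and 3, and most of that gap came from these 3 genes. WFDC2 read 596, 596 and 641 and did not share this dip. MUC16, another membrane mucin, averaged 170.

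Of 13 measured goblet cell genes only GALNT5, a glycosyltransferase, was detected (7.69%, beside 49.4% of all named genes). GALNT5 read 109, 100 and 121, close to the limit. The goblet list also names the mucin MUC5AC, which had no annotated probe here and was not analysed. It is in neither this count nor that of the mucin family. The mucin MUC5B read 86, 85 and 91, and SPDEF and AGR2, a goblet cell factor and a mucin-folding protein, were not detected on any array. In the mucin family as a whole, 2 of 12 measured members were detected (16.7%), MUC1 and MUC16.

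The ciliated program was likewise not detected in its defining genes. FOXJ1 read 82, 84 and 90, with a highest detection p of 0.292, and the dynein genes DNAI1 and DNAI2 stayed between 82 and 88. Of 19 ciliated genes 4 were detected (21.1%, beside 49.4% of all named genes). The brightest, TUBA1A, read 4765, 4934 and 4344, but this tubulin is used by cells of all kinds. CCNO, which acts in the amplification of centrioles, read 452, 448 and 498. CAPS averaged 127 and the regulator RFX3 107. The members detected under their listed symbols were thus a general tubulin and 3 other genes. MCIDAS, CCDC40, PIFO, CCDC78, FAM183A and C20orf85 of the list had no annotated probe under these symbols and are not in this count. The axonemal dyneins DNAH5 and DNAH9 and the radial spoke genes RSPH1 and RSPH4A were at background. With gene symbols updated to current ones, 5 ciliated genes were detected.

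Squamous genes were detected for 11 of 24 members (45.8%), a share near that of all genes. The listed genes KRT6A, KRT6B and LOR had no annotated probe under these symbols and are not in this count. The brightest, S100A9, read 3578, 4122 and 3777, and is a calcium-binding defence protein of neutrophils as well as of squamous cells. Its partner S100A8 read 148, 340 and 241. KRT10, the keratin of upper epidermis, read 768, 1040 and 890, and KRT16, a stress keratin, read 438, 366 and 439. CNFN, a cornified envelope protein, averaged 261, and TGM1, the enzyme that cross-links the envelope, read 181, 182 and 188. IVL and KRT13, early squamous genes, passed on 2 of the 3 arrays, at 83, 98 and 98 and at 104, 99 and 96. Small proline-rich genes lay between, with SPRR3 at a mean of 177 and SPRR1A at 137. SPRR2D and SPRR1B averaged 122 and 114, and FLG, which encodes the filaggrin of the upper epidermis, was detected at the limit, at 98, 100 and 98. Of the late differentiation genes, CRNN and SBSN were not detected on any array, and KRTDAP passed on 1.

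Keratins as a family were detected in 11 of 49 members (22.4%), below the share of all genes. KRT19 and KRT8 were the brightest, followed by KRT80 at 1709, 1675 and 2033. KRT7, KRT10, KRT16 and KRT18 came next, with means of 998, 899, 415 and 362. KRT34 had a mean of 334. KRT5 had a mean of 183, KRT9 of 122 and KRT15 of 113. The keratins of simple epithelia, KRT8, KRT19, KRT7 and KRT18, were thus all detected, and of the measured basal keratins KRT5 and KRT15. KRT17, KRT6A and KRT6B had no annotated probe and are not among the family members counted.

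Of 26 mesenchymal genes 8 were detected (30.8%, beside 49.4% of all named genes). VIM, the vimentin filament of mesenchymal cells, read 133, 152 and 145, and its second probe was not detected on any array, at 82, 78 and 83. The N-cadherin CDH2 read 143, 128 and 126, where the lowest CDH1 value was 2114. FN1, which encodes fibronectin, was not detected on all 3 arrays by any of its 3 probes, the brightest of which read 99, 91 and 95. The transcription factors ZEB1, ZEB2 and SNAI1 were at background on every array, and TWIST1 passed on 2. The brighter members of the list were SPARC, a matricellular protein, at 1246, 1698 and 1589, and the actin-binding TAGLN at 1004, 1089 and 1392. COL5A1 averaged 513, S100A4 215 and the smooth muscle actin ACTA2 178. COL1A1, the main fibroblast collagen chain, read 99, 109 and 110, near the limit, and COL1A2, COL3A1 and DCN were not detected. Of 21 measured cadherins 3 were detected (14.3%), CDH1, CDH3 and CDH2, in that order of mean intensity.

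Rare airway cell types left few of their genes above background. Of 8 ionocyte genes only CFTR was detected (12.5%, beside 49.4% of all named genes), and the ionocyte regulators FOXI1 and ASCL3 were not. CFTR, the chloride channel mutated in cystic fibrosis, read 1001, 774 and 1178, a mean of 985 ± 203 (SD, n = 3) at rank 1480. Of 10 tuft cell genes only ALOX5AP, a leukotriene synthesis protein, was detected (10%), at a mean of 106, and POU2F3, TRPM5 and DCLK1 were not. Of 10 neuroendocrine genes 2 were detected (20%). UCHL1, a deubiquitinating enzyme of neurons and of many cultured lines, read 1130, 973 and 1107, and INSM1 read 100, 97 and 100, at the limit. CHGA, SYP and CALCA were at background. Of 13 alveolar genes 3 were detected (23.1%), LAMP3 at a mean of 253, ABCA3 at 115 and RTKN2 at 108, and the surfactant genes SFTPC, SFTPA1 and SFTPB were not. Of the 7 genes detected across these 4 lists, CFTR, UCHL1 and LAMP3 stood clear of the limit and the remaining 4 had means of 99 to 115.

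**Figure D4:**
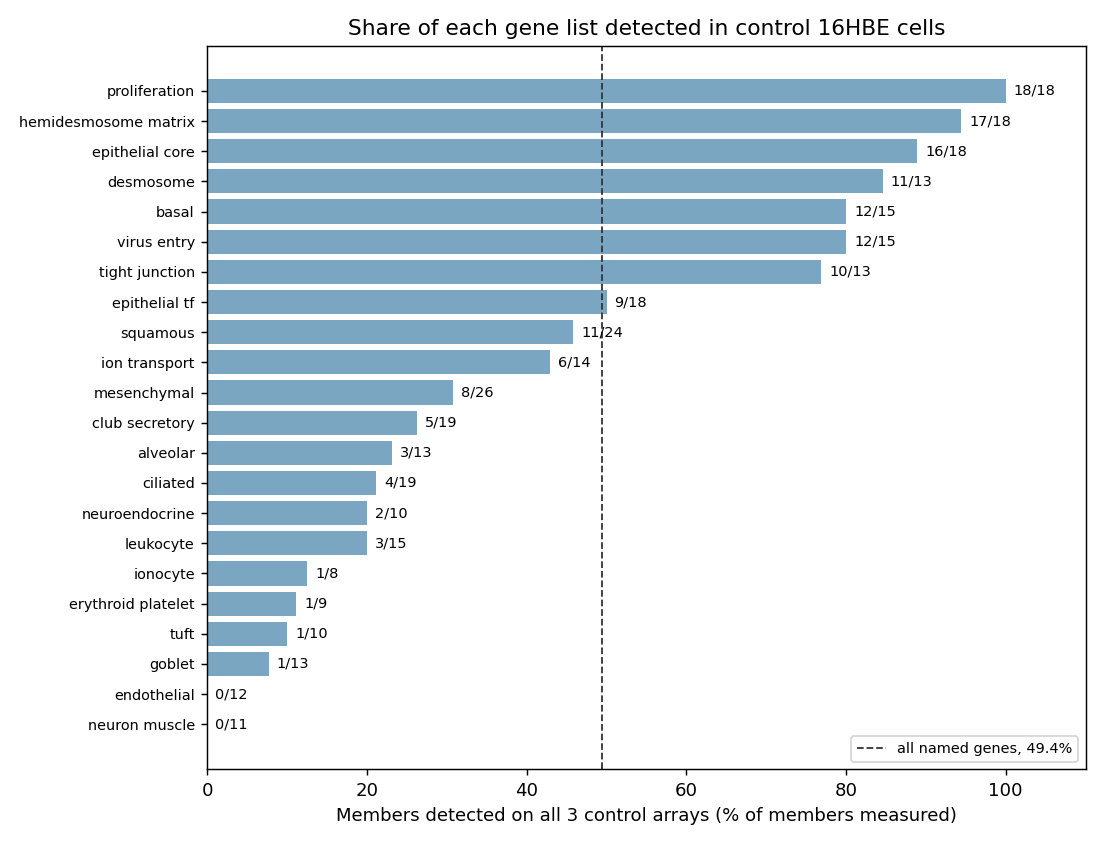
Share of the measured members of each of 22 gene lists that was detected on all 3 control arrays, in percent, with counts beside the bars; the dashed line is the 49.4% of all named genes. Proliferation, hemidesmosome and matrix, epithelial and desmosome lists lie furthest above the line, and endothelial, neuron or muscle, goblet, tuft and erythroid or platelet lists furthest below it.

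Among genes for ion and water transport 6 of 14 were detected (42.9%, near the 49.4% of all genes), and 7 with gene symbols updated to current ones. Beside CFTR, SCNN1A, the alpha subunit of the epithelial sodium channel, read 467, 575 and 574. Its partner subunits SCNN1B and SCNN1G were not detected, at 79 to 90 and 78 to 87. ANO1, a calcium-activated chloride channel, read 339, 333 and 315. ATP1B1, a sodium pump subunit, averaged 638, and the potassium channel KCNN4 270. SLC26A4, SLC26A9, SLC4A4, KCNQ1, AQP3 and AQP5 were not detected on any array, and CLCN2 had no annotated probe under this symbol. The chloride channels CFTR and ANO1 were thus detected together with 1 of the 3 sodium channel subunits.

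Surface proteins and proteases used by viruses to enter cells were detected in 12 of 15 cases (80%, beside 49.4% of all named genes). ICAM1, which binds major-group rhinoviruses, read 108, 119 and 117, near the limit. CDHR3, the receptor of rhinovirus C, was not detected on any array, and the protease TMPRSS2 passed on 1. The transferrin receptor TFRC read 3115, 3382 and 3456, NCL 1845, 2083 and 2039, BSG 1195, 1062 and 1169 and the lysosomal protease CTSL 818, 845 and 1044. CXADR, the receptor of coxsackie B viruses and adenoviruses, read 483, 522 and 561. CD55 read 415, 481 and 579 and EGFR 394, 373 and 382, so that CXADR, CD55 and EGFR all lay above the median of 271 of detected genes. The brightest members of this list have general tasks in growing cells.

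Markers of cells that should be absent from the line were mostly at background. Of 15 leukocyte genes 3 were detected (20%, beside 49.4% of all named genes). These were CD68 at a mean of 277, CD14 at 127 and CORO1A at 102, and PTPRC, CD3D and CD3E were not detected. Of 12 endothelial genes, among them PECAM1, CDH5 and VWF, and of 11 neuron and muscle genes, among them RBFOX3, SNAP25 and SYT1, 0 were detected. Of 9 erythroid and platelet genes PPBP was detected (11.1%), at 103, 105 and 106, and the globins HBB, HBA1 and HBA2 were not.

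All 18 proliferation genes measured were detected (100%, beside 49.4% of all named genes). TYMS, the thymidylate synthase, read 2994, 3347 and 3387, and UBE2C, a mitotic ubiquitin enzyme, 3018, 3332 and 3580. The replication helicase subunit MCM7 read 2864, 3113 and 3279, and the cyclin CCND1 3201, 2551 and 2976. PCNA, the sliding clamp of replication, averaged 2821, and TOP2A, the topoisomerase of dividing cells, 2462. MKI67, the gene of the Ki-67 antigen, read only 103, 109 and 119 and was the dimmest of the list. RRM2, PLK1 and CDKN2A also lay well below the brighter members, with means of 221, 275 and 453. MKI67 thus lay near the limit of detection on the arrays on which UBE2C and TOP2A were among the brightest 500 genes.

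S100 genes, small calcium-binding proteins, were detected in 12 of 19 cases (63.2%, beside 49.4% of all named genes). S100A10, S100A9 and S100A6 were the brightest, with S100A6 at 2964, 3281 and 2962. S100A11, S100A16 and S100A13 averaged 1989, 1385 and 1095, and S100A3 566. S100A14, S100A8, S100A4 and S100P had means of 263, 243, 215 and 191. S100A2, which marks basal cells, read 101, 100 and 100, at the limit.

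Of 12 annexins 9 were detected (75%, beside 49.4% of all named genes). Behind ANXA2 came ANXA1, which dampens inflammation, at 3493, 3588 and 3626, ANXA3 at 2462, 2278 and 3130 and ANXA5 at 1849, 2065 and 2170. ANXA7 and ANXA8 averaged 883 and 615, and ANXA11, ANXA9 and ANXA4 225, 211 and 160. Of 27 tubulin and tubulin complex genes 18 were detected (66.7%). TUBA1C, TUBA1A, TUBA1B and the pseudogene TUBA3FP had means of 4704, 4681, 3767 and 3659. The beta tubulins TUBB, TUBB4B and TUBB6 averaged 2371, 2242 and 794. Alpha tubulins share long stretches of sequence, and whether their probes can tell them apart was not tested.

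Agreement between probes of a gene bore on the ranking. Among the 100 brightest genes 63 had several probes, and in 15 of these the second probe was undetected or more than 10 times dimmer. The genes given here were picked after their values were seen. TMSB4X read 5823, 5820 and 4997 with one probe and 85, 93 and 89 with the other. LAIR1, an inhibitory receptor of leukocytes, read 4112, 4747 and 5255 with one probe and 93, 82 and 85 with the other. F2R, the thrombin receptor, read 3780, 4817 and 5099 with one probe and 87, 95 and 87 with the other. RPL41 showed the same gap, with a second probe at 105, 116 and 115. In such genes one probe placed the gene at the top and the other near background, and which probe reports the transcript was not tested. In the other direction, the ribosomal protein RPL10 was not detected, at 80, 84 and 89, while 71 other ribosomal protein genes were. A gene that was not detected is therefore not shown to be silent.

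The 3 control arrays differed little. Across the 9912 detected genes, the correlation of normalized log2 intensity between arrays was 0.99 to 0.993, over genes, which are not independent replicates. The median SD of a gene over the 3 arrays was 0.124 on the log2 scale, after normalization over all 12 arrays, and the 90th percentile was 0.247. The median SD fell from 0.152 among genes below the lower quartile of intensity to 0.101 among those above the upper quartile. An SD above 0.5 was found for 23 genes, and array 1 lay farthest from the median in 13 of them, array 2 in 8 and array 3 in 2. By list, the detected hemidesmosome and matrix genes had a median SD of 0.1 and the detected secretory genes of 0.283.

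S100A8 had the largest SD, with normalized log2 intensities of 6.5, 8.07 and 7.31, an SD of 0.78. Its partner S100A9 did not share this spread, since its raw intensities ran from 3578 to 4122. CFB, the complement factor B, had log2 intensities of 6.46, 7.74 and 6.96, and TXNIP, a glucose-responsive inhibitor of thioredoxin, 7.13, 8.32 and 7.58. These 3 genes were lowest on array 1 and highest on array 2, as were PLEKHA4 and ATP6V1B1, a proton pump subunit, while TMEM200A and GLIPR1 were highest on array 1 and lowest on array 2. BPGM and TMEM139 were lowest on array 1, at 5.64 and 5. The ribosomal RNA probes went the other way: RNA28SN5 had raw intensities of 2301, 1045 and 1132 and RNA18SN5 of 567, 262 and 377, highest on array 1. TELO2 read 130, 168 and 240, but as few as 7 beads were read for it, with a bead standard error of up to 18.7% of the mean.

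**Figure D5:**
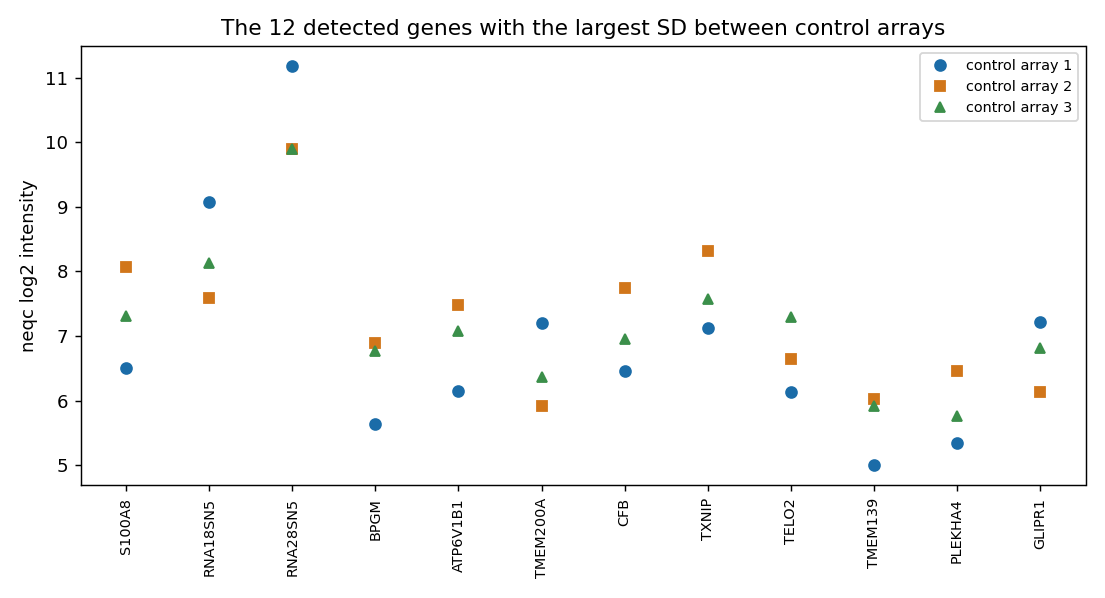
Normalized log2 intensity on control arrays 1, 2 and 3 of the 12 detected genes with the largest SD between them. S100A8, CFB and TXNIP are lowest on array 1 and highest on array 2, and both ribosomal RNA probes are highest on array 1.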

How the data were processed

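Groups were taken from the labels. Mean bead intensity per probe came from the deposited non-normalized table, which also gives bead numbers, bead standard errors and, per the file headers, a detection p-value. The submitters' processing notes name GenomeStudio, with no version or settings in the sources used here. A deposited table of the authors' processed intensity values served as an alternative. In the annotation given with the series, which can be old, 30112 of 47322 probes carry 1 gene symbol, 17202 carry none and 8 carry more. A gene counted as detected through any probe with a detection p under 0.01 on all 3 control arrays, and was ranked by its brightest such probe on raw intensity. Spread was taken on log2 values computed from the deposited intensities of all 12 arrays with neqc (limma 3.58.1, R 4.3.3, offset 16). With 1 group described, no test was run; detection and ranking were tested on simulated data.

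The members and lists were chosen with earlier results of these data known. Named genes are the 25 brightest, 6 markers, the first 3 and the 5 brightest detected of each of 22 lists, the detected members of listed families other than ribosomal proteins, and the 12 of largest SD, without LOC, HS. or FLJ symbols in the brightest and most variable. Members of the EEF and EIF family were given as examples. Other genes, among them further list members, genes with disagreeing probes, RPL10 and 15 families added later, were named after their values were seen. Starts came from the RefSeq promoter table (GRCh38.p14; 250 bases before and 50 after each start). Alternatives were detection limits, probe rules, scalings, updated gene symbols and leaving out each control array.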

Additional observations from a re-analysis of the deposited data

How the results depend on the processing

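No paired analysis was possible because a single group was described and no test was made. The 9912 detected genes became 10709 at a detection p under 0.05, 10379 with at least 2 of the 3 arrays, and 7671 where every probe of a gene had to be detected. Counts of list members stayed within 1.5 times of the reported count in 145 of 154 cases. Where every probe had to be detected, desmosome genes fell to 7, basal genes to 6, hemidesmosome and matrix genes to 9 and leukocyte genes to 1. At a detection p under 0.05, 2 tuft, 3 endothelial and 2 erythroid or platelet genes were detected; with at least 2 of 3 arrays there was 1 endothelial gene, and leaving out each control array in turn gave 0 to 1, with 1 without array 3. Of the 25 brightest genes, 14 stayed when the mean of all detected probes ranked a gene. The others kept 20 to 24, also with the processed values of the authors, and 22 stayed when genes with disagreeing probes were left out, an alternative chosen after seeing the data. Genes with an SD above 0.5 numbered 3 when log2 intensities were only scaled to a shared median. They ranged from 23 to 111 when each control array was left out, with 56 without array 2 and 111 without array 3. The cause was not tested for these shifts, except that an SD over 2 arrays is less precise. Genes below about 108 in mean intensity could fall on either side of the detection limit.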

Other observations

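Gene families added after the data were seen gave further values for the control cells, with no test. Kallikreins, secreted serine proteases known from shedding skin, were detected in 5 of 16 cases (31.2%, beside 49.4% of all named genes). KLK5 read 4109, 4467 and 4185, KLK6 3398, 2977 and 3394 and KLK7 1764, 2114 and 2458. Both KLK5 and KLK6 were therefore among the brightest 500 genes. Of 40 chemokines 7 were detected (17.5%): CCL5, which draws T cells, read 2801, 3142 and 3108, CXCL16 had a mean of 1258, and CXCL8, which draws neutrophils, read 461, 462 and 509. Of 10 Toll-like receptors TLR6 was detected (10%), at 96, 97 and 98, and TLR3, a sensor of double-stranded RNA, passed on 2 arrays. Interleukin receptors were detected in 15 of 33 cases (45.5%, near the share of all genes). IL10RB had a mean of 1033, and IL13RA1 and IL4R, which together bind interleukin-13, averaged 535 and 426.

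Of 29 measured HOX genes 12 were detected (41.4%, beside 49.4% of all named genes), all of them of the A, B or C clusters; HOXC6 read 393, 532 and 507 and HOXB7 409, 429 and 464. SOX15 read 926, 1083 and 1288 and was the brightest of 5 detected of 19 SOX genes (26.3%). Of 42 FOX genes 13 were detected (31%), led by FOXO3 at a mean of 982, and the proliferation factor FOXM1 averaged 506. Integrins were detected in 12 of 26 cases (46.2%) and collagens in 11 of 43 (25.6%), and the protease inhibitor SERPINE2, the brightest of 8 detected of 31 serpins (25.8%), read 2327, 1557 and 2107. Of the EGFR family EGFR, ERBB2 and ERBB3 were detected, with means of 383, 693 and 387, and ERBB4 was not.

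GSTP1, a glutathione transferase of many epithelia, read 3860, 4403 and 4177, and 14 of 22 such genes were detected (63.6%, beside 49.4% of all named genes). Aldehyde dehydrogenases were detected in 12 of 18 cases (66.7%): ALDH1A3, which makes retinoic acid, read 2217, 1448 and 1699, while ALDH1A1 passed on 2 arrays at 84, 101 and 100. Of 21 cytochrome P450 genes measured 3 were detected (14.3%), CYP1B1, CYP2J2 and CYP2S1, with means of 389, 364 and 137. Among HLA genes 12 of 21 were detected (57.1%); HLA-B read 2102, 2354 and 2746, HLA-E 1326, 1665 and 1572 and the class II gene HLA-DRA 178, 186 and 203.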
